A study of Mus musculus with 4 samples.

Results

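Siglecs are cell-surface lectins that bind sialic acid, the sugar that caps most glycoproteins and glycolipids of a cell's own surface. The 8 genes described here are 6 sialic acid receptors (Cd33, Siglech, Siglece, Siglec1, Siglecg and Cd22) and the phosphatases Ptpn6 (SHP-1) and Ptpn11 (SHP-2), which the inhibitory receptors of the family recruit. They were chosen by gene symbol from 49993 genes with a count, and all 8 had enough reads to be tested. Each was compared between microglia of AD and AD/KO mice.

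All libraries were RNA-seq of CD11b+ microglia, taken with magnetic beads from brains of mice 10 months old. AD mice were APP/PS1+ asrij+/+, and AD/KO mice were APP/PS1+ asrij-/-, so both groups carried the amyloid-forming APP/PS1 transgenes and neither was free of amyloid. asrij, the gene also named Ociad1, was deleted constitutively and not in microglia alone. There were 2 libraries in each group. Whether a library came from 1 animal or several, and which promoter drives the transgenes, is not given in the sources used here, so p-values measure only the spread between these libraries.

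Many Siglecs carry an immunoreceptor tyrosine-based inhibitory motif (ITIM) in the part of the protein inside the cell. When a sialylated ligand is bound, a kinase of the Src family phosphorylates the motif, and Ptpn6 or Ptpn11 docks there and dampens signals from activating receptors. Other members lack the motif and pair with the activating adaptor Tyrobp, as Siglech does. In the brain the family is known from microglia: human CD33 lies at a locus associated with risk of Alzheimer's disease, Siglech is a marker of mouse microglia, and Cd22, best known from B cells, is also found on microglia of old mice, where it restrains phagocytosis.

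The libraries held 13102622 to 19810076 reads on genes. All 12 genes of a homeostatic microglia list had reads in every library. Ociad1 itself was at 50.2 and 63.4 CPM (reads scaled to library size, with library sizes adjusted by TMM, a trimmed mean of ratios) in the AD libraries and at 38.9 and 32.1 CPM in the AD/KO libraries. It was lower but present in both libraries labelled AD/KO, so AD and AD/KO stand here for the libraries as labelled. The libraries also differed within groups. AD/KO replicate 2 had the lowest homeostatic microglia level (mean log2 CPM of the list 8.61, against 9.84 to 10.3 in the other libraries) and the highest levels of neuron genes (7.30 against 4.27 to 5.93) and astrocyte genes (8.53 against 5.84 to 7.25). AD replicate 2 had the highest neutrophil level (7.14 against 3.52 to 3.76). In bulk RNA, fewer cells of a type and less RNA per cell cannot be told apart.

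**Figure D1:**
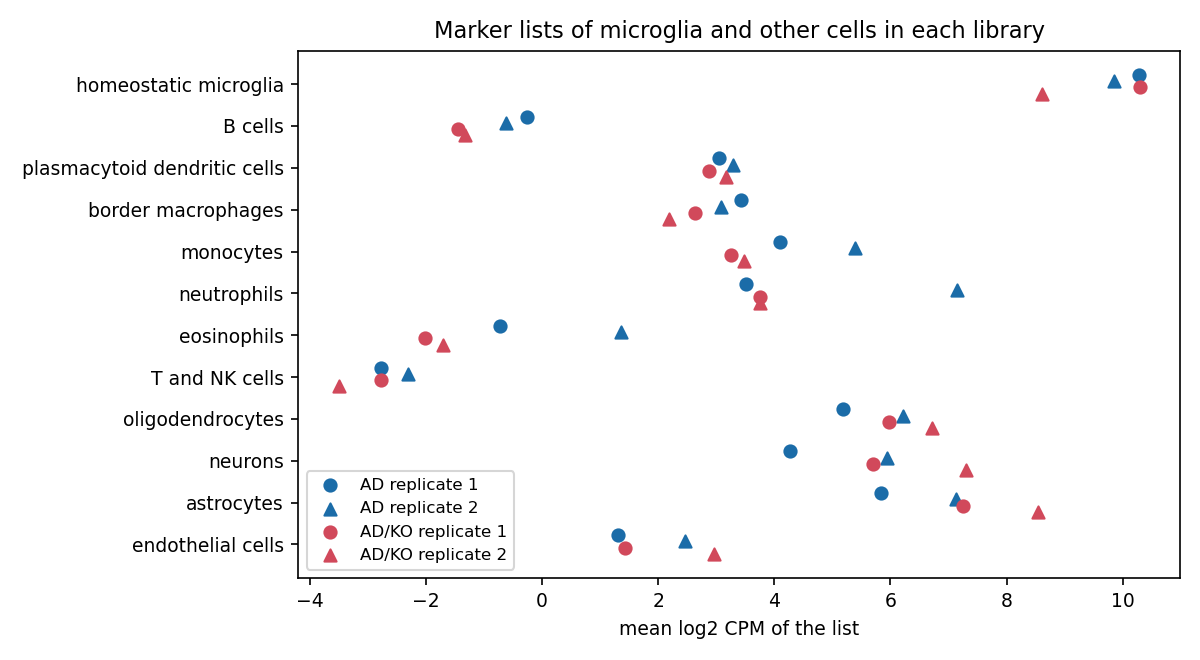
Mean log2 CPM of 12 marker lists (vertical axis) in each of the 4 libraries, with AD in blue, AD/KO in red, replicate 1 as circles and replicate 2 as triangles. AD/KO replicate 2 lies lowest for homeostatic microglia and highest for neurons, astrocytes and oligodendrocytes, and AD replicate 2 lies highest for neutrophils, monocytes and eosinophils.

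On GRCm38.p6 (RefSeq, counted from 1), 5 of the 8 genes are on chromosome 7, and all are protein-coding. Siglecg (43408192 to 43418349), Cd33 (43527399 to 43537424) and Siglece (43648882 to 43672044) form a cluster there, with Siglecf (43351341 to 43359475) on its near side. Cd22 (30865404 to 30880342) lies 18832 bases from Mag, the Siglec of myelin, and Siglech (55768154 to 55779448) stands apart. Siglec1 is on chromosome 2 (131067801 to 131086778), Ptpn6 on chromosome 6 (124720707 to 124738709) and Ptpn11 on chromosome 5 (121130533 to 121191397). The Siglece span overlaps Ceacam18 and Ctu1, and the Siglech span overlaps Gm39015. Over 382 bases, a Siglecg transcript matches Gm29791 at 98.4% identity, and Gm29791 was listed at 0 reads in every library. A Cd22 transcript matches Gm29439 over 509 bases at 95.1% identity, and a Ptpn6 transcript matches Gm20531 over 203 bases at 99.5%. Exons of Gm29439 and Gm20531 overlap those of Cd22 and Ptpn6 on the opposite strand. Neither was analysed here, and because the handling of strand is not given in the sources used here, reads of these antisense genes cannot be told apart from those of Cd22 and Ptpn6. Some Siglec1 transcripts hold a stretch of under 180 bases that matches many other genes at 95% identity or more, so that part of the Siglec1 count is uncertain.

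The 250 bases before the start site, from RefSeq on GRCm38.p6, are shown for the 2 most abundant receptors, for Cd22, which differed most between the groups, and for both phosphatases, because Cd33, Siglech and Ptpn6 varied together across the libraries and Ptpn11 did not. The promoter table held 7 of the 8 genes. Capitals mark matches, on either strand, to the PU box GAGGAA, which myeloid factors of the ETS family bind, or to the GC box GGGCGG, which Sp1 binds. Matches to the same motif can overlap, as they do in Ptpn6.
Cd33 (chr7:43533172-43533421, minus strand): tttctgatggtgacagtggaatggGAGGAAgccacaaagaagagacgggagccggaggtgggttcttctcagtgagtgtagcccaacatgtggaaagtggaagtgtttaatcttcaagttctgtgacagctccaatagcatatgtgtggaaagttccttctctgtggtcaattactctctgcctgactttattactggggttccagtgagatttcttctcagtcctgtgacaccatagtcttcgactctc
Siglech (chr7:55767934-55768183, plus strand): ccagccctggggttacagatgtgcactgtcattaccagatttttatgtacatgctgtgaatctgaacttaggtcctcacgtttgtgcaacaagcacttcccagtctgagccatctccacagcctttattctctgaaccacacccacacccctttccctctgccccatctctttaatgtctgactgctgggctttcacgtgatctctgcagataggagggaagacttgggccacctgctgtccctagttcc
Cd22 (chr7:30879029-30879278, minus strand): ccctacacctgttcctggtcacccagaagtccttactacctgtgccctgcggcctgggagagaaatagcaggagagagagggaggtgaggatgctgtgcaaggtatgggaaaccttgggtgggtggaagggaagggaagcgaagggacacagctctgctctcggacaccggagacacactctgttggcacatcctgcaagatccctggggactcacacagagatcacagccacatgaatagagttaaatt
Ptpn6 (chr6:124738710-124738959, minus strand): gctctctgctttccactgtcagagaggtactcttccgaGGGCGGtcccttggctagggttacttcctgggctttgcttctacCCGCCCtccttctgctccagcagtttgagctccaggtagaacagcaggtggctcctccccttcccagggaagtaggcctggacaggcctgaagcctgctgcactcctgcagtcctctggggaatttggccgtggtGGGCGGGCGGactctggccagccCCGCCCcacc
Ptpn11 (chr5:121191398-121191647, minus strand): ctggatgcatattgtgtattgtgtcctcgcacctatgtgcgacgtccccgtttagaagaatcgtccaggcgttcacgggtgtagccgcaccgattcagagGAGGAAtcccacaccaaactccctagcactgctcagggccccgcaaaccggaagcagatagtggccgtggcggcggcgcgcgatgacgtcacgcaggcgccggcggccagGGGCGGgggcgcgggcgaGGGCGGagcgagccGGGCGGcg

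The start sites given for Cd33, Siglech, Siglece, Siglecg and Cd22 lie inside the gene spans given above, so that the Cd33, Siglece and Cd22 windows are wholly inside the gene. The PU box was matched 1 time before Cd33, 1 time before Ptpn11, 3 times before Siglece and 2 times before 1 of the 2 Siglecg start sites, and 23.3% of all 32851 promoter windows of that length held it. The GC box was matched 5 times before Ptpn6 and 3 times before Ptpn11, against 32.7% of windows with at least 1 match. The Siglec windows held 0 GC boxes. A TATA box (TATAAA, in 12.4% of windows) had 0 matches before any of the 7 genes. A match is a description of the sequence, and no match says only that these letters are not in the window.

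Levels of different genes were compared as CPM per kilobase of exon (union of GENCODE M21 exons). In AD, Siglech stood highest at 265 ± 104 CPM per kilobase (SD, n = 2). It was followed by Ptpn6 at 74.6 ± 13.3 and Cd33 at 64.8 ± 22.6, whose libraries overlapped. Siglece was at 38.6 ± 4.86 and Ptpn11 at 15.01 ± 3.44 on the same scale. The receptors best known from other cells came last, with Cd22 at 5.21 ± 0.0235, Siglec1 at 2.65 ± 0.495 and Siglecg at 1.66 ± 0.175. Ptpn6 and Cd33 were the only neighbours in this order whose AD libraries overlapped. With the length of the longest coding transcript in place of all exons, Siglecg (3.10) and Siglec1 (2.96) changed places. In AD/KO the order of the means was the same, from Siglech at 184 ± 141 to Siglecg at 1.04 ± 0.596 CPM per kilobase, but Ptpn6, Cd33, Siglece and Ptpn11 overlapped one another, as did Cd22, Siglec1 and Siglecg. In AD/KO replicate 2, Ptpn11 at 34.2 CPM per kilobase stood above Ptpn6 (23.2), Cd33 (20.9) and Siglece (17.2).

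**Figure D2:**
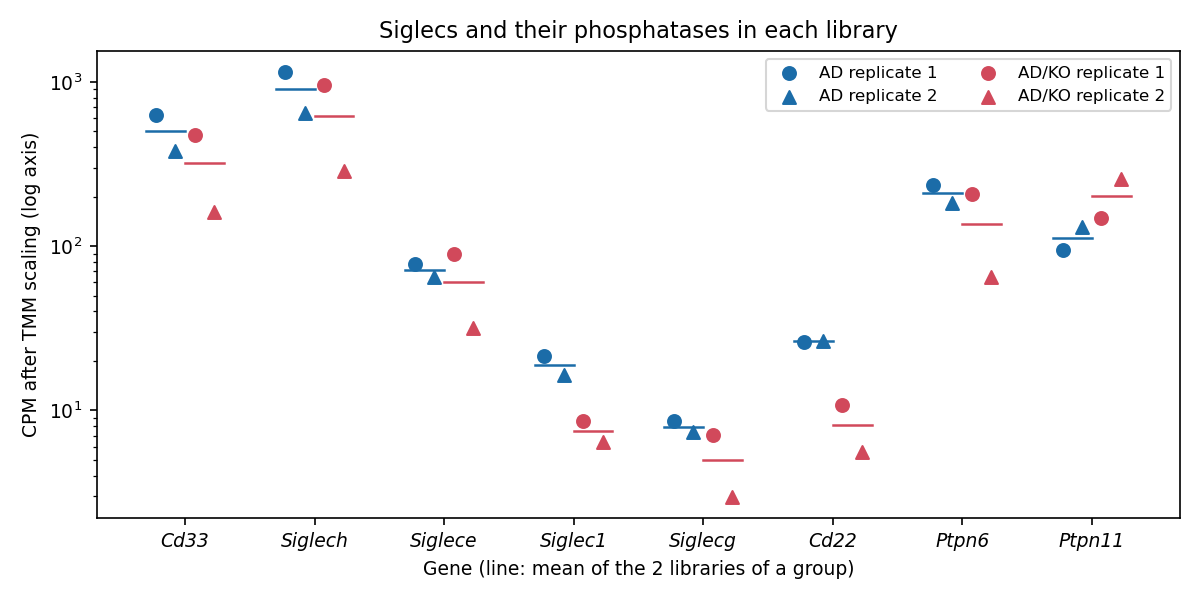
CPM after TMM scaling (log axis) of the 8 genes in each library, with AD in blue, AD/KO in red, circles for replicate 1, triangles for replicate 2 and lines for the group means. Cd22 and Siglec1 lie clearly lower in both AD/KO libraries, and Cd33, Siglech, Siglece and Ptpn6 overlap between the groups, with AD/KO replicate 2 lowest of the 4.

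The main comparison asked whether these genes differed between AD/KO and AD microglia. In edgeR's quasi-likelihood test 0 of the 8 reached an adjusted p of 0.05 (Benjamini-Hochberg over 21439 genes, 0% of them called), and DESeq2 called 0 of the 8 as well. With the replicate number as a block, a fit taken up in the closing section, 3 of the 8 were called, where 20.2% of all genes were. Cd22 and Siglec1, both lower in AD/KO, had an unadjusted p under 0.05, which 2.3% of all genes reached in that direction. The groups did not overlap for 3 genes that were lower in AD/KO (Cd22, Siglec1 and Siglecg) and for 1 that was higher (Ptpn11). Over all genes tested, 21.7% lay lower and 20.3% higher without overlap. The median log2 fold change of the 8 was −0.64, beside −0.05 over all genes tested. Of the 8, 7 were lower in AD/KO, 6 with scaling to the homeostatic list and 3 with the level of neuron and astrocyte genes as a covariate.

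Cd22, an inhibitory Siglec with ITIMs, had the largest difference among the 8. It stood at 26.2 and 26.4 CPM in the AD libraries and at 10.7 and 5.59 CPM in the AD/KO libraries. Both AD values were nearly equal, and both AD/KO values lay below them. The AD/KO mean was 31.1% of the AD mean, a log2 fold change of −1.69 (SE 0.43, unadjusted p = 0.0119, adjusted p = 0.68, edgeR quasi-likelihood test). Leaving out AD/KO replicate 2 gave −1.28, and leaving out AD replicate 2 gave −1.61. B cells are the other known source of Cd22. Their list was low throughout, with summed CPM of 19.1 and 17.1 in AD and 12.6 and 8.36 in AD/KO. Of its 10 genes, 6 were lower in AD/KO with no overlap of the groups, beside 21.7% of all genes tested. Fcmr, 1 of the 6, had 8 and 4 reads in AD and 3 and 1 in AD/KO and was not tested. The immunoglobulin genes Ighm and Igkc were listed at 0 in all libraries, as was the T cell receptor gene Trac, while Cd79a had 24 to 35 reads. Whether reads on such genes were counted at all cannot be told, so these zeros do not measure B cells. The part of B cell RNA in the difference was not tested.

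Siglec1 (sialoadhesin, Cd169) is a long receptor of macrophages that lacks an ITIM and is induced by interferon. It was at 21.4 and 16.4 CPM in AD and at 8.60 and 6.40 CPM in AD/KO. Neither AD/KO library reached the lower AD value, and their mean was 39.7% of that in AD. The log2 fold change was −1.33 (SE 0.38, unadjusted p = 0.0171, adjusted p = 0.68, edgeR quasi-likelihood test), with −1.12 when AD/KO replicate 2 was left out and −1.14 when AD replicate 1 was. The border macrophage list, whose cells also carry Siglec1, had 7 of 10 genes lower in both AD/KO libraries, beside 21.7% of all genes. Its mean log2 CPM was 3.43 and 3.08 in AD and 2.63 and 2.19 in AD/KO, its summed CPM was 820, 533, 812 and 313 in the same order, and its part in the difference was not tested.

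Siglecg, which like Cd22 restrains B cells, had the lowest CPM of the receptors. Its levels were 8.56 and 7.38 CPM in AD and 7.04 and 2.98 CPM in AD/KO, from 55 to 135 reads. AD/KO replicate 1 lay just under the lower AD library, so the absence of overlap rested on a narrow gap. The log2 fold change was −0.67 (SE 0.56), and −0.17 without AD/KO replicate 2. Cd22 and Siglecg did not keep their ratio. There were 3.06 and 3.58 Cd22 reads for each Siglecg read in AD, and 1.53 and 1.87 in AD/KO.

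Cd33, whose human counterpart is known from the genetics of Alzheimer's disease, was at 628 and 380 CPM in AD and at 477 and 162 CPM in AD/KO. AD/KO replicate 1 lay between the AD libraries, and AD/KO replicate 2 was the lowest. The log2 fold change was −0.66 (SE 0.65), less than the spread between replicates. Leaving out AD/KO replicate 2 brought it to −0.07, and leaving out AD/KO replicate 1 to −1.58. The estimate therefore depended on which AD/KO library was kept.

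Siglech, the microglial Siglec that signals through Tyrobp, followed the same order of libraries as Cd33. It was at 1147 and 649 CPM in AD and at 960 and 285 CPM in AD/KO, with a log2 fold change of −0.53 (SE 0.74). Without AD/KO replicate 2 the sign changed, to 0.11. Plasmacytoid dendritic cells are the other known site of Siglech. The summed CPM of their list was 894 and 755 in AD and 794 and 808 in AD/KO, carried mainly by Tcf4, Irf8 and Pacsin1, which other brain cells express. Of its 10 genes, 1 (Cox6a2, 30 to 35 reads in each library) was lower in AD/KO without overlap and 0 were higher. Over all genes tested, 21.7% lay lower and 20.3% higher without overlap. Ly6d and Klk1 had at most 10 and 7 reads in any library, but Ccr9 had 76 and 39 reads in AD and 66 and 30 in AD/KO, and Bst2 had 128 to 334 reads. The part of these cells was not tested. Across libraries there were from 1.71 to 2.01 Siglech reads for each Cd33 read, with the AD values at 1.83 and 1.71 and the AD/KO values at 2.01 and 1.76.

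Siglece, an inhibitory Siglec of myeloid cells, had the smallest difference. It was at 77.7 and 65.0 CPM in AD and at 88.8 and 31.9 CPM in AD/KO, so that the AD/KO group held both the highest and the lowest library. Its log2 fold change was −0.24 (SE 0.54), and its sign changed to 0.33 without AD/KO replicate 2. Neutrophils also express Siglece. Their list was at a summed CPM of 381 and 4768 in AD and 506 and 576 in AD/KO, and their part was not tested.

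Of the phosphatases, Ptpn6, which is restricted mainly to blood-forming cells, was at 235 and 183 CPM in AD and at 207 and 64.9 CPM in AD/KO. The groups overlapped. The log2 fold change was −0.62 (SE 0.61) and was −0.00034 without AD/KO replicate 2. The ratio of Ptpn6 to Cd33 reads ran from 0.375 to 0.481 over the 4 libraries.

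Ptpn11, which nearly all cells express, was the only gene of the 8 that was higher in AD/KO. It was at 94.2 and 131 CPM in AD and at 148 and 256 CPM in AD/KO, without overlap. The log2 fold change was 0.85 (SE 0.42, unadjusted p = 0.0988, adjusted p = 0.68, edgeR quasi-likelihood test). It was 0.41 without AD/KO replicate 2. The astrocyte list had a summed CPM of 1896 and 4467 in AD and 4673 and 11933 in AD/KO. In both AD/KO libraries 9 of its 10 genes were higher, beside 20.3% of all genes tested. The oligodendrocyte list ran in the same order of libraries by summed CPM, at 1540 and 2404 in AD and 3798 and 8482 in AD/KO. By mean log2 CPM it did not, at 5.18 and 6.22 in AD and 5.98 and 6.72 in AD/KO. Of its 10 genes, 4 were higher in AD/KO without overlap and 0 were lower, beside 20.3% and 21.7% of all genes tested. The neuron list did not run in that order either, with a summed CPM of 352 and 1202 in AD and 886 and 2796 in AD/KO. With the neuron and astrocyte level as a covariate, the log2 fold change of Ptpn11 was 0.21. The part of these cells in the difference was not tested. There were 0.40 and 0.716 Ptpn11 reads for each Ptpn6 read in AD, and 0.715 and 3.95 in AD/KO, so AD/KO replicate 2 alone carried more reads of Ptpn11 than of Ptpn6.

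**Figure D3:**
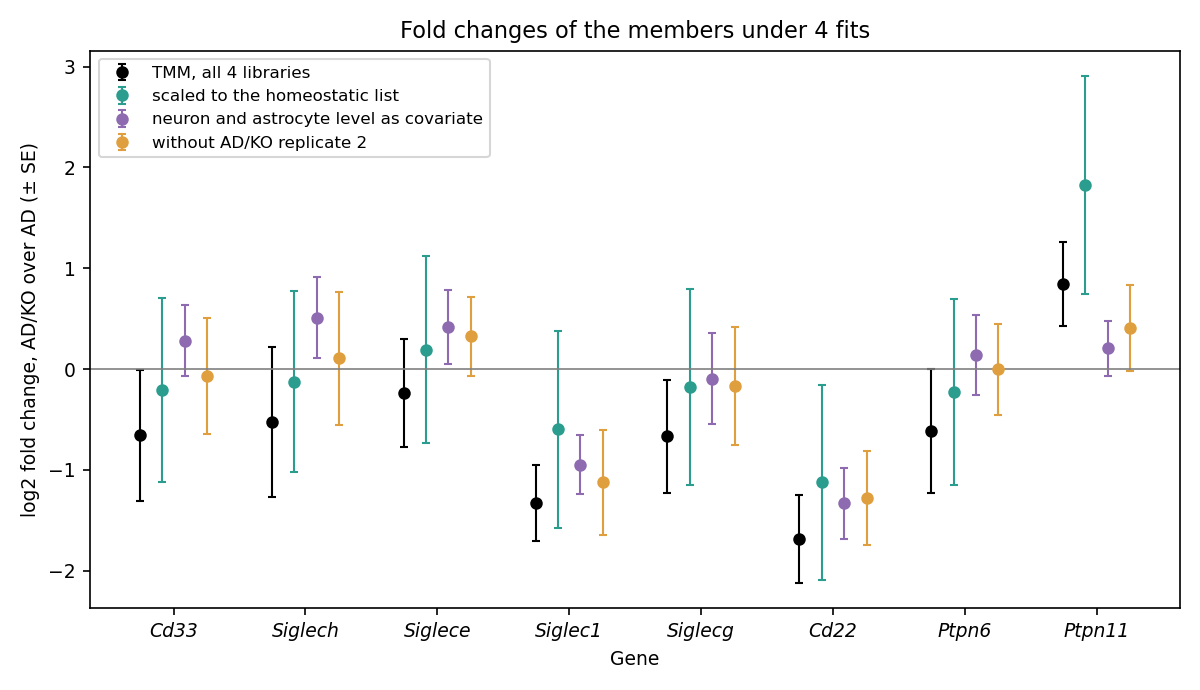
Log2 fold changes of AD/KO over AD (± SE) for the 8 genes in the fit with TMM scaling of all 4 libraries, with scaling to the homeostatic microglia list, with the neuron and astrocyte level as a covariate, and without AD/KO replicate 2. Cd22 and Siglec1 stay below 0 in all 4 fits and Ptpn11 above 0, while Cd33, Siglech, Siglece and Ptpn6 cross 0.

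Because the homeostatic microglia level differed between libraries, each gene was also set against the geometric mean of the 12 homeostatic microglia genes within its own library. Groups that did not overlap on this scale made up 7.74% of all genes for lower and 8.92% for higher in AD/KO. Cd33 stood at log2 ratios of −0.98 and −1.28 in AD and −1.40 and −1.27 in AD/KO, and Siglech at −0.12 and −0.50 in AD and −0.39 and −0.46 in AD/KO. Both overlapped between the groups and varied less than their CPM did. Ptpn6 was at −2.40 and −2.33 in AD and at −2.60 and −2.59 in AD/KO, a small gap without overlap. Siglece, lower in AD/KO by mean CPM, was slightly higher on this scale, at −4.00 and −3.82 in AD and −3.82 and −3.62 in AD/KO.

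Cd22 kept its gap on this scale, at −5.57 and −5.12 in AD and −6.86 and −6.12 in AD/KO. Siglec1 was at −5.86 and −5.80 in AD and at −7.18 and −5.93 in AD/KO. AD/KO replicate 2 was close to the AD libraries here, so on this scale most of the Siglec1 difference came from AD/KO replicate 1. In CPM, AD/KO replicate 2 had the lower Siglec1 value (6.40 against 8.60). It also had the lowest homeostatic level (mean log2 CPM 8.61), by which the ratio divides. Siglecg overlapped, at −7.18 and −6.96 in AD and −7.47 and −7.02 in AD/KO. In the edgeR fit with this scaling, which moved the median over all genes from −0.05 to 0.73, Cd22 was at −1.13 (SE 0.97) and Siglec1 at −0.60 (SE 0.98).

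**Figure D4:**
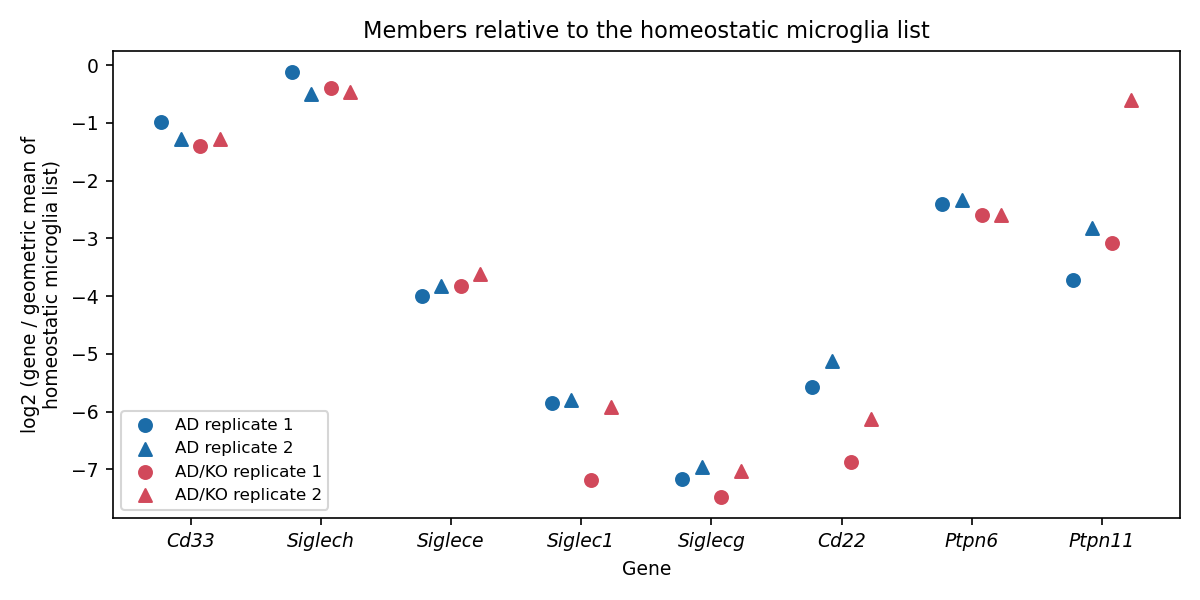
Log2 ratio of each of the 8 genes to the geometric mean of the homeostatic microglia list, in each library (AD blue, AD/KO red, circles replicate 1, triangles replicate 2). Cd22 is lower in both AD/KO libraries, Siglec1 mainly in AD/KO replicate 1, Cd33 and Siglech hardly differ, and Ptpn11 is highest in AD/KO replicate 2.

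The genes most like each receptor were sought among 13761 other genes with a mean of at least 5 CPM, by the root mean square difference of log2 CPM centred over the 4 libraries. For Cd33 these were 9030025P20Rik (0.0101), Csf2rb2 (0.0137) and Gm13070 (0.0146). For Siglech they were Uba7 (0.0129), Irf5 (0.0245) and Tlr5 (0.0287). For Siglec1 they were Nod2 (0.0345), Lilra5 (0.0682) and Tcim (0.0812), and for Cd22 they were Tnfsf13b (0.0683), Lilr4b (0.0842) and Plac8 (0.131). With 4 libraries and so many genes, close matches are a description only.

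The wider pathway was described by 8 lists of genes, of which 71 of 74 were tested. None passed the adjusted threshold in edgeR's quasi-likelihood test, 12 had an unadjusted p under 0.05 and were lower in AD/KO, and 2 had one and were higher, where 2.3% and 2.7% of all genes did. DESeq2 called 2 of them, Lilrb4a and St8sia6, where it called 0.44% of all genes. The groups were apart, with no overlap, in 25 genes that were lower in AD/KO and in 5 that were higher, where 21.7% and 20.3% of all genes tested were.

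Of the other Siglecs, Mag, the myelin-associated receptor of oligodendrocytes, was at 128 and 290 CPM in AD and at 168 and 156 CPM in AD/KO, with overlap (log2 fold change −0.37, SE 0.48). Although Mag lies next to Cd22, their libraries did not share an order. Siglecf, known from eosinophils, was at 25.04 and 20.96 CPM in AD and at 18.9 and 4.78 CPM in AD/KO (log2 fold change −0.96, SE 0.69). Siglec15, the osteoclast Siglec, had 0 and 7 reads in AD and 1 and 3 in AD/KO and was not tested. The eosinophil list was low, but it too was lower in AD/KO, with a summed CPM of 6.46 and 27.0 in AD and 3.60 and 2.66 in AD/KO. In both AD/KO libraries 5 of its 6 genes were lower, beside 21.7% of all genes tested. Among them Prg3, Ear6 and Il5ra had too few reads to be tested, with Prg3 at 1 and 3 reads in AD and 0 and 1 in AD/KO. Siglecf was higher in AD replicate 1 than in AD replicate 2, and the eosinophil list was lower there. The part of eosinophils in the Siglecf difference was not tested.

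The partners that carry Siglec signals into the cell are adaptors with an activating motif and the Src and Syk kinases. Of these 10 genes, 8 were lower in AD/KO (6 with scaling to the homeostatic list, 4 with the neuron and astrocyte covariate), and the median log2 fold change was −0.54. Leaving out AD/KO replicate 2 brought that median to −0.0039, and leaving out AD/KO replicate 1 to −1.45. Lyn, the kinase that phosphorylates ITIMs and the gene with the highest CPM of the list, was at 481 and 332 CPM in AD and at 377 and 140 CPM in AD/KO (log2 fold change −0.65, SE 0.59). Fgr, a Src-family kinase of myeloid cells, had the smallest p of the list. It was at 34.2 and 60.7 CPM in AD and at 13.5 and 9.33 CPM in AD/KO, without overlap (log2 fold change −2.05, SE 0.43, unadjusted p = 0.00515, adjusted p = 0.68, edgeR quasi-likelihood test). Tyrobp, chosen for naming after its values were seen because it is the adaptor of Siglech, was at 226 and 263 CPM in AD and at 196 and 76.5 CPM in AD/KO (log2 fold change −0.84, SE 0.53).

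The 15 other receptors with ITIMs all had fold changes below 0, of which Sirpa and Pecam1 changed sign with scaling to the homeostatic list, and Sirpa, Pecam1, Cd300a and Lair1 with the neuron and astrocyte covariate. In 11 of the 15 the AD/KO libraries lay below AD without overlap, as in 21.7% of all genes, and 6 had an unadjusted p under 0.05, as had 2.3% of all genes in that direction. Their median log2 fold change was −1.18, against −0.64 for the 6 Siglecs and 2 phosphatases together and −0.05 for all genes tested. Leaving out AD/KO replicate 2 gave −0.78, leaving out AD/KO replicate 1 gave −1.79, and scaling to the homeostatic list gave −0.57. Lilrb4a, an inhibitory receptor of activated myeloid cells, had the smallest p. It was at 72.9 and 82.9 CPM in AD and at 20.9 and 14.6 CPM in AD/KO, 22.8% of the AD mean (log2 fold change −2.13, SE 0.32, unadjusted p = 0.0013, adjusted p = 0.68, edgeR quasi-likelihood test). By DESeq2 its log2 fold change was −2.10, with an adjusted p of 0.025. Sirpa, the receptor for the signal Cd47, had the highest CPM and overlapped, at 2235 and 1404 CPM in AD and 1940 and 739 CPM in AD/KO. Several genes of the list are also expressed by neutrophils and monocytes. The mean log2 CPM of the monocyte list was 4.10 and 5.38 in AD and 3.25 and 3.47 in AD/KO, without overlap. Of its 10 genes, 7 were lower in both AD/KO libraries and 1 (Nr4a1) was higher in both, beside 21.7% and 20.3% of all genes. Ccr2, the chemokine receptor of monocytes, had the smallest p of that list. It was at 39.8 and 39.95 CPM in AD and at 10.3 and 6.13 CPM in AD/KO, while Vcan and Chil3 overlapped. The neutrophil list was high in AD replicate 2 alone. The part of these cells was not tested. Without AD replicate 2 the median was −0.85.

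Among 8 other phosphatases, 7 were lower in AD/KO (2 with scaling to the homeostatic list), with 0 at an unadjusted p under 0.05 and a median of −0.44. Inpp5d (SHIP-1), a lipid phosphatase recruited by inhibitory receptors and another gene associated with Alzheimer's disease risk, had the highest CPM, at 1130 and 635 CPM in AD and 948 and 313 CPM in AD/KO. Its order of libraries was that of Cd33 and Siglech. Ptprc (CD45), the phosphatase of all white blood cells, had the smallest p, at 451 and 385 CPM in AD and 251 and 103 CPM in AD/KO (log2 fold change −1.24, SE 0.54, unadjusted p = 0.0709, adjusted p = 0.68, edgeR quasi-likelihood test). With scaling to the homeostatic list, the median changed sign, to 0.23.

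On the ligand side, the 8 genes that make, activate, transport or modify sialic acid had a median of −0.46 on the log2 scale. Of these, 7 were lower (2 with scaling to the homeostatic list). An unadjusted p under 0.05 was reached by 1 of the 7, and by 2.3% of all genes in that direction. With scaling to the homeostatic list the median was 0.24. Casd1, the sialic acid O-acetyltransferase and the gene with the highest CPM, overlapped at 71.9 and 50.6 CPM in AD and 54.3 and 27.4 CPM in AD/KO. Cmah converts the acetyl form of sialic acid to the glycolyl form, the ligand that mouse Cd22 prefers. It was at 7.19 and 13.5 CPM in AD and at 2.14 and 2.01 CPM in AD/KO, without overlap (log2 fold change −2.31, SE 0.52, unadjusted p = 0.00726, adjusted p = 0.68, edgeR quasi-likelihood test).

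The sialyltransferases, which attach sialic acid to glycans, did not share a direction. Of 19 tested, 10 were higher and 9 lower (16 and 3 with scaling to the homeostatic list), and the median was 0.06. In each direction 2 had an unadjusted p under 0.05, where 2.7% of all genes did higher and 2.3% lower. The groups did not overlap for 4 that were higher and 4 that were lower, beside 20.3% and 21.7% of all genes tested. St8sia6, which builds disialic acid caps, had the smallest p. It was at 57.5 and 37.99 CPM in AD and at 10.4 and 5.64 CPM in AD/KO, 16.8% of the AD mean (log2 fold change −2.57, SE 0.46, unadjusted p = 0.00264, adjusted p = 0.68, edgeR quasi-likelihood test). DESeq2 gave it −2.54 with an adjusted p of 0.00775. St3gal6, which had the highest CPM, overlapped at 316 and 154 CPM in AD and 227 and 75.9 CPM in AD/KO. The pair with an unadjusted p under 0.05 that was higher, St6gal2 and St6galnac5, is named after its values were seen. St6gal2 was at 1.45 and 4.61 CPM in AD and at 8.34 and 21.9 CPM in AD/KO, and St6galnac5 at 2.61 and 6.64 CPM and at 10.5 and 23.7 CPM. Both were highest in AD/KO replicate 2, the library with the highest neuron and astrocyte levels, and the part of those cells was not tested.

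Sialidases remove sialic acid. Their list also held Ctsa, the protective protein of the lysosomal sialidase. Of the 4 genes tested in the list, 2 were higher and 2 (Neu1 and Ctsa) lower in AD/KO, and 0 had an unadjusted p under 0.05. With scaling to the homeostatic list 3 were higher and 1 lower. Ctsa had both the highest CPM and the smallest p, at 560 and 453 CPM in AD and 480 and 178 CPM in AD/KO (log2 fold change −0.62, SE 0.59). Of 5 carriers of sialylated ligands, all had a fold change below 0, Selplg and Cd47 changing sign with scaling to the homeostatic list, and the median was −1.83. Without AD replicate 2 it was −0.44. Spn (CD43, a ligand of Siglec1) had the smallest p, at 12.05 and 32.3 CPM in AD and 5.32 and 4.02 CPM in AD/KO (log2 fold change −2.25, SE 0.59, unadjusted p = 0.0131, adjusted p = 0.68, edgeR quasi-likelihood test). Its highest value was in AD replicate 2, where the neutrophil and monocyte lists were highest too, and the monocyte list was lower in both AD/KO libraries. The part of those cells was not tested. Selplg, which had the highest CPM, overlapped at 1278 and 848 CPM in AD and 1433 and 413 CPM in AD/KO. It is also 1 of the 12 homeostatic genes.

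**Figure D5:**
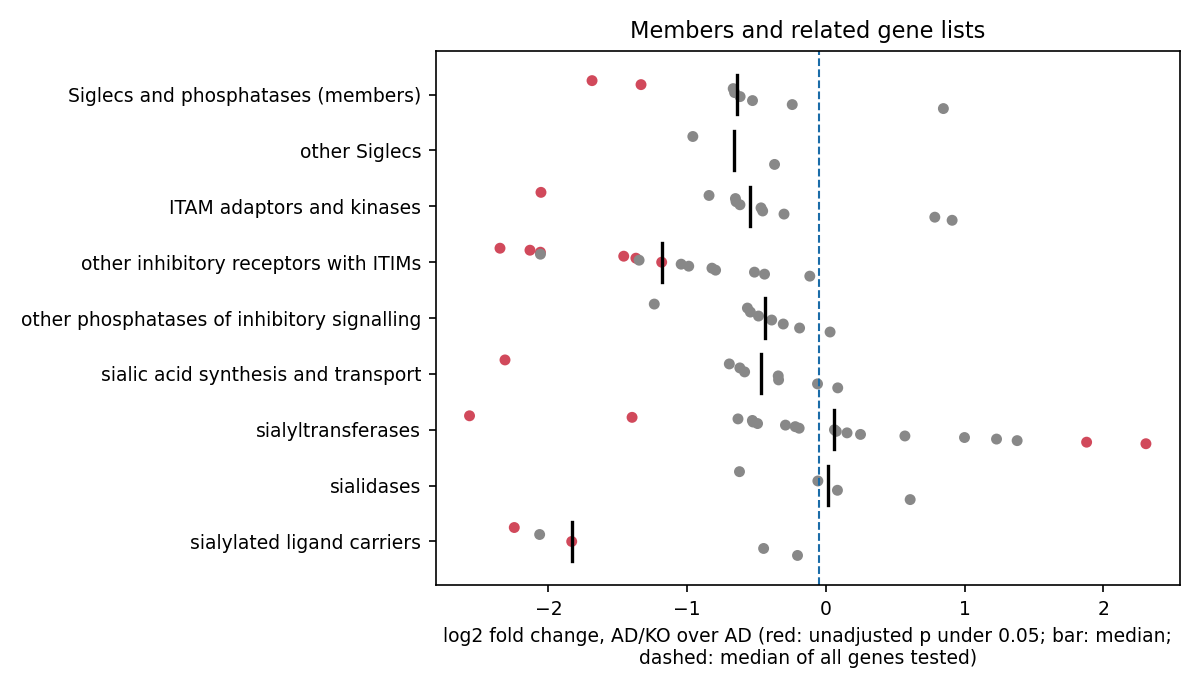
Log2 fold changes of AD/KO over AD for the 8 Siglec and phosphatase genes and for 8 related lists, with 1 point per gene tested, red where the unadjusted p was under 0.05, a bar at each list's median and a dashed line at the median of all genes tested (−0.05). The points of the other ITIM receptors all lie below 0 in this fit, though Sirpa and Pecam1 change sign with scaling to the homeostatic list, and those of the sialyltransferases spread from −2.57 to 2.31.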

How the data were processed

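Bulk RNA-seq of 4 libraries was used, 2 AD and 2 AD/KO. The authors deposited 1 table for each library, with unnormalized read counts (whole numbers) by gene symbol. The submitters' processing notes name HISAT2, featureCounts, SAMtools, Subread, DESeq2 1.30.0 and mm10. How strand and reads with several matches were handled, and with which annotation, is not given in the sources used here, so antisense and near-identical genes may share counts. Broken lines without a count (11 in each file) were left out, and 0 columns lacked a sample.

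Counts were tested with edgeR 4.0.16 in R 4.3.3 (TMM, quasi-likelihood F-test, no covariates). The filter was filterByExpr with a minimum count of 10 and also a minimum total of 15. Benjamini-Hochberg adjustment was over the 21439 genes that passed the filter, with a threshold of 0.05. The SE is the log2 fold change divided by the square root of F. The test was also run on simulated counts with known changes, whose outcome is not used here. DESeq2 1.42.0 and the fits in the closing section were alternatives. A library's floor of 3 reads was 0.156 to 0.218 CPM, which covers counting error only. An exact permutation test of 2 against 2 libraries cannot go below p = 0.333, so none was run. Near-identical transcripts were searched in GENCODE M21 with BLAST 2.17.0.

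Of the related genes, the one with the highest CPM and the one with the smallest p in each list were named. The genes and lists were chosen with earlier results of these data known. All 8 genes matched the RefSeq table. Protein sequences were not used here.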

Additional observations from a re-analysis of the deposited data

How the results depend on the processing

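The main fit called 0 of the 8 genes. Under the alternatives they had 88 values, of which 78 had the same sign and the same call, 3 became calls and 7 changed direction. None of the 7 was of Cd22, Siglec1, Siglecg or Ptpn11. In size, 59 of the 88 stayed within 1.5 times of the main value without a change of direction. With the neuron and astrocyte level as a covariate (1 residual degree of freedom), Cd33 was at 0.28, Siglech at 0.51, Siglece at 0.41 and Ptpn6 at 0.14. With scaling to the homeostatic list Siglece was at 0.19. Without AD/KO replicate 2, Siglech was at 0.11 and Siglece at 0.33. The cause was not tested.

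Leaving out 1 library at a time leaves a group with a lone library, assumed to vary like the other group. The log2 fold changes then ran from −1.58 to −0.07 for Cd33, −1.60 to 0.11 for Siglech, −1.11 to 0.33 for Siglece, −1.51 to −1.12 for Siglec1, −1.36 to −0.17 for Siglecg, −2.18 to −1.28 for Cd22, −1.63 to −0.00034 for Ptpn6 and 0.41 to 1.24 for Ptpn11. The genes called ran from 0 to 524 (48 without AD replicate 1 and 524 without AD replicate 2), the 8 genes called stayed at 0, and the pathway genes called ran from 0 to 3. DESeq2 called 88 genes in all and 2 pathway genes.

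AD and AD/KO share the replicate numbers 1 and 2, and no label ties equal numbers to one litter, batch or day. Gene by gene, the distance of a library from its group mean had a correlation of 0.72 between libraries of equal number. With 2 libraries in a group, both lie equally far from the mean on opposite sides, so numbers 1 and 2 give the same value. It therefore cannot tell whether equal numbers belong together. Replicate 2 had the higher neuron and astrocyte levels in both groups, and their part in the correlation was not tested. With the replicate block, 4333 genes (20.2%), 24 pathway genes and 3 of the 8 were called, namely Cd22 at −1.75 (adjusted p = 0.00574), Siglec1 at −1.34 (0.00714) and Ptpn11 at 0.81 (0.0252), by edgeR's quasi-likelihood test. Across all alternatives the adjusted p of Cd22 ran from 0.00574 to 1. Siglecg had the fewest reads of the 8 (55 to 135).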
